A study of Mus musculus with 6 samples.

Results

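The genes described here encode the ligands, antagonists and receptor chains of the interleukin-1 (IL-1) family that the table of bone marrow-derived macrophages (Mφs) lists under the symbols Il1a, Il1b, Il18, Il1rn, Il18bp, Il1r1, Il1rap, Il1r2, Il1rl2 and Il1rl1. They were chosen by name, with earlier results of these data known, and make up 10 of the 41549 genes in the table. Of the 10 genes, 9 had enough reads to be tested, and Il1r2 did not.

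Messenger RNA was sequenced from Mφs grown from the bone marrow of wild type C57Bl/6N mice, aged 10 to 12 weeks, by culture with macrophage colony-stimulating factor. While still naive (M0), the cells received a locked nucleic acid antisense oligonucleotide against 5′tRF-Glu(CTC), which is the 5′ part of a tRNA for glutamate (αGlu, n = 3), or a control oligonucleotide (Ctr, n = 3), each with a lipofection reagent. Cells of both groups were then polarized with IL-4 and IL-13 into M2 anti-inflammatory Mφs, so no library shows cells without lipofection or without these cytokines. The study describes the libraries of a group as independent experiments, and the comparison asks which transcripts differ when the fragment is blocked. The fragment itself was not measured in these libraries, so how far it was blocked is not known from them.

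IL-1α and IL-1β bind the receptor IL-1R1, which then takes up the accessory chain IL-1RAcP and signals through the adaptor MyD88 to NF-κB. The system is held in check by IL-1Ra, an antagonist that occupies IL-1R1 without signalling, by IL-1R2, a decoy that binds ligand but has no signalling domain, and by IL-18BP, which neutralizes IL-18. The accessory chain is shared with ST2, the receptor for IL-33, and with the receptor for IL-36. Mφs are a main source of IL-1β, whose messenger RNA is scarce at rest and accumulates during inflammatory activation.

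The oligonucleotide that defines the αGlu group and its target are printed first, because the comparison rests on their pairing. In the target, capitals mark the bases from position 2 to 21 that pair with the antisense.
antisense: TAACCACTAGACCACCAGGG
target in 5′tRF-Glu(CTC): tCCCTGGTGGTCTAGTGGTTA

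The promoters of 4 members follow, because they belong to the genes of the IL-1 ligands (Il1b and Il1a), of their antagonist (Il1rn) and of ST2 (Il1rl1), the member that was lower in every αGlu library. Each sequence holds the 250 bases before a RefSeq transcript start on GRCm38.p6, read 5′ to 3′ on the strand of the gene. Capitals mark matches, on either strand, to the letters searched for NF-κB (GGG and CC with 5 bases between), STAT6 (TTC and GAA with 4 bases between), GATA factors (AGATAA) and the TATA box (TATAAA).
Il1b, chr2:129371140-129371389, minus strand: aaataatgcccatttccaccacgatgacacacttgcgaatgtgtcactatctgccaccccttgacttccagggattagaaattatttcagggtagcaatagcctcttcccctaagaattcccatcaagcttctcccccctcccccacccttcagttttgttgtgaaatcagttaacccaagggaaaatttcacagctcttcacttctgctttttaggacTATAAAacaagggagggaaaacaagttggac
Il1a, chr2:129309973-129310222, minus strand: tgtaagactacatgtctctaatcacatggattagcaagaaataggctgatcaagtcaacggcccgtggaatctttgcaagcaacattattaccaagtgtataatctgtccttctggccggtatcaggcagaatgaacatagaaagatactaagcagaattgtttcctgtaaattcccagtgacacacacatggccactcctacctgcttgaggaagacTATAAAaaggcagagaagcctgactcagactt
Il1rn, chr2:24345041-24345290, plus strand, the second of 3 starts: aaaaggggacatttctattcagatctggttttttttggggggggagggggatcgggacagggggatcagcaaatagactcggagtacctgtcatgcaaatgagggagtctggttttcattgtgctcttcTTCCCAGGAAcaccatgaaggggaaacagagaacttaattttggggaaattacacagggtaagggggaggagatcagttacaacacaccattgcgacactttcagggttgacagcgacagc
Il1rl1, chr1:40429320-40429569, plus strand, the first of 2 starts: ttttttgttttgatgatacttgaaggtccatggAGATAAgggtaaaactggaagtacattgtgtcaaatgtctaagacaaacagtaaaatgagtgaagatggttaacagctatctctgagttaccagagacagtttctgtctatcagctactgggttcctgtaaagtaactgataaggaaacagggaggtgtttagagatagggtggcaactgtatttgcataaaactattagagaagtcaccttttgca
Il1rl1, chr1:40439379-40439628, plus strand, the second of 2 starts: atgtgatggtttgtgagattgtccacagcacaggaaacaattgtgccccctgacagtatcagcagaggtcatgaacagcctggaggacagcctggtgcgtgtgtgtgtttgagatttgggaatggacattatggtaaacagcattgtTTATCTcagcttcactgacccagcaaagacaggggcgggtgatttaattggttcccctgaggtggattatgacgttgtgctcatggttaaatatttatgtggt
Il1b and Il1a each held TATAAA close to the start, at -31 to -26 and at -32 to -27, counted backwards from the base before the start. Both windows of Il1rl1 held AGATAA, at -217 to -212 before the first start and, on the opposite strand, at -103 to -98 before the second. The second Il1rl1 window and the Il1rn window lie inside their genes. The printed window of Il1rn, before its second start, held the STAT6 letters at -121 to -112 and no NF-κB letters. Its other windows, not printed, differed. The first start had NF-κB letters at -54 to -45 and no STAT6 letters. The third had NF-κB letters at -51 to -42, and its window overlaps the printed one and shares the same STAT6 match.

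All 10 members had an entry, with 14 starts in all, and the same letters were counted in 32851 RefSeq promoters of the same length. A member was counted when any of its starts held a match, whereas the shares of all promoters are per window. Members with several starts had more windows to match, so the counts and shares are not like for like. The NF-κB letters were common, with 45.8% of all promoters holding a match against 3 of the 10 members (Il1r1, Il1rap and Il1rn). The letters TATAAA were found, on either strand, for 4 members (Il1a, Il1b, Il18 and Il1rl2) and in 12.4% of all promoters. Those of Il18 (-175 to -170) and Il1rl2 (-166 to -161) lay on the opposite strand and not close to the start. AGATAA was found for Il1rl1 alone among the members and in 9.99% of all promoters, and the STAT6 letters for Il18 and Il1rn and in 5.85%. AP-1 letters (TGANTCA) were found for Il1a and Il1rn against 6.75% of all promoters, PU.1 letters (GAGGAA) for Il1a against 23.3%, and C/EBP letters (TTGCNNCAA) for Il18bp against 1.74%. The interferon-response letters (GAAA repeated after 2 bases) were found for 0 of the 10 members and in 2.98% of all promoters. Among the members, matches overlapped only where NF-κB letters of Il1rap overlapped each other. These matches describe letters in a window and show no binding.

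Total counts ranged from 17912831 to 30386653 per library, and 11933 genes were tested. Of the macrophage markers, 10 of 10 had a mean above 1 CPM (reads scaled to the size of the library), with summed levels of 12200 to 13800 CPM in Ctr and 13100 to 19600 CPM in αGlu. The αGlu libraries were not alike. Across genes, log2 CPM of αGlu 2 and αGlu 3 correlated at r = 0.992, whereas αGlu 1 reached 0.929 with either of them and 0.966 to 0.982 with Ctr libraries. Genes are not independent replicates, and the values are descriptive. The fold change of each member is therefore given with and without αGlu 1. That library was singled out after the data were seen, and without it only the similar αGlu 2 and αGlu 3 remain. Adjusted p values and calls of the fit without αGlu 1 depend on this choice and are given as a description.

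The members fell into 3 patterns. IL-1α, IL-1β, IL-1Ra and the chains of the IL-1 and IL-36 receptors were higher in αGlu 2 and αGlu 3 than in any Ctr library, by 1.61-fold (Il1rl2) to 1010-fold (Il1b) over the Ctr mean, while αGlu 1 stayed within or below the Ctr range. Il18 and its neutralizer Il18bp lay above the Ctr mean in all 3 αGlu libraries, by 1.32-fold to 2.23-fold. Il1rl1 was lower in all 3 αGlu libraries than in all 3 Ctr libraries. With edgeR's quasi-likelihood test on all 6 libraries, where a call needs both an adjusted p under 0.1 and a log2 fold change beyond 1 in either direction, 0 of the 9 tested members were called, as were 0% of all genes tested. At an unadjusted p under 0.05 there were 7 of 9 members, 6 higher and 1 lower in αGlu, against 24.7% of all genes tested. In bulk RNA, fewer cells of a type and less RNA per cell cannot be told apart.

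**Figure D1:**
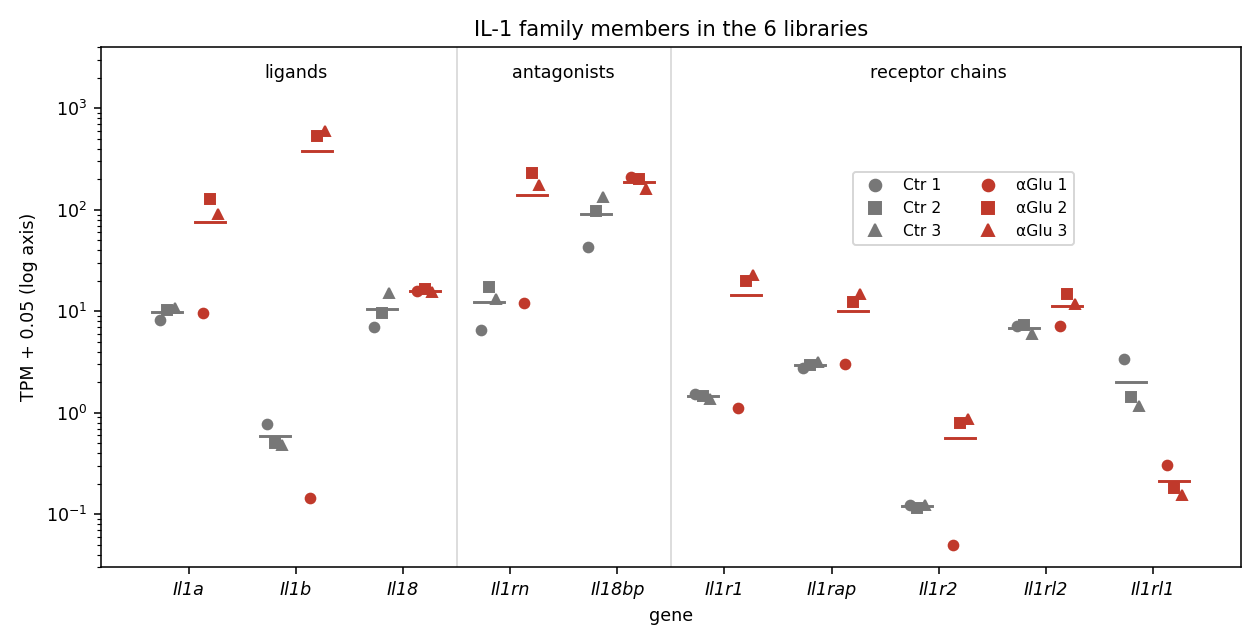
Levels of the 10 genes in each library, as deposited TPM plus 0.05 on a log axis, for Ctr (grey) and αGlu (red), with the marker shape giving the library number and a bar the group mean (n = 3). The circles of αGlu 1 lie near the grey symbols for Il1a, Il1rn, Il1rap and Il1rl2 and below them for Il1b, Il1r1 and Il1r2, whereas all 3 red symbols of Il1rl1 lie below the grey ones.

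TPM values are scaled by gene length and allow levels of different genes to be compared. In Ctr cells Il18bp was the most abundant member, with a mean of 90.9 ± 45.1 TPM (SD, n = 3), and its range lay apart from that of the next gene. Il1rn (12.4 ± 5.51 TPM), Il18 (10.6 ± 4.22 TPM) and Il1a (9.75 ± 1.35 TPM) followed with overlapping ranges. Below them came Il1rl2 with 6.80 ± 0.702 TPM, and then Il1rap, Il1rl1 and Il1r1, which lay between 1.11 and 3.37 TPM and overlapped from one to the next. Il1b ranked ninth of the 10 genes, with 0.437 to 0.733 TPM, and Il1r2 was last. In αGlu 1 the order was nearly that of Ctr, with Il18bp first and Il1b ninth. In αGlu 2 and αGlu 3 Il1b ranked first, with 541 and 595 TPM, ahead of Il1rn, Il18bp and Il1a, and Il1rl1 ranked last.

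Among the ligands, Il1b, which codes for the secreted inflammatory cytokine IL-1β, spanned the widest range. Its reads numbered 10, 7 and 6 in Ctr 1, 2 and 3, and 1, 10227 and 9405 in αGlu 1, 2 and 3. After scaling these were 0.454, 0.293 and 0.278 CPM in Ctr and 0.0574, 322 and 345 CPM in αGlu. The groups overlapped, because αGlu 1 was the lowest of the 6 libraries and the other two αGlu libraries were the highest. Relative to the Ctr mean, Il1b was 942-fold higher in αGlu 2 and 1010-fold higher in αGlu 3, and 5.96-fold lower in αGlu 1, a value that rests on 1 read. The fitted log2 fold change was 9.33 ± 2.43 (SE) with an adjusted p of 0.156 by edgeR's quasi-likelihood test. Without αGlu 1 it was 9.91 with an adjusted p of 2.22e-06 by edgeR. Il1b passed the read filter largely through αGlu 2 and αGlu 3, where it was high, so these values are given as a description.

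Il1a, the gene of IL-1α, which acts without processing by caspase-1, lies 61.2 kb from Il1b on chromosome 2. It was at 5.27, 6.81 and 7.10 CPM in Ctr, against 6.14, 79.8 and 55.0 CPM in αGlu. Again αGlu 1 lay within the Ctr range, and αGlu 2 and αGlu 3 were 12.5-fold and 8.60-fold above the Ctr mean. This gave a log2 fold change of 2.88 ± 0.85 with an adjusted p of 0.160 by edgeR, and 3.39 with an adjusted p of 7.79e-05 without αGlu 1. The 2 ligands of IL-1R1 exchanged their order: Il1b was 0.0494 to 0.1 times Il1a in Ctr and 0.0198 times in αGlu 1, and 4.18 and 6.48 times Il1a in αGlu 2 and αGlu 3 (ratios of TPM plus 0.1).

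Il18, whose product is made as a precursor and, like IL-1β, is cleaved by caspase-1, behaved otherwise. Its levels were 2.32, 3.34 and 5.24 CPM in Ctr and 5.28, 5.35 and 4.80 CPM in αGlu. The αGlu libraries were close to each other and all above the Ctr mean, but αGlu 3 was below Ctr 3, so the groups overlapped. Its log2 fold change was 0.50 ± 0.31 with an adjusted p of 0.327 by edgeR, and 0.48 with 0.292 without αGlu 1. By deposited TPM the groups were apart, by a margin of 15.2 against 15.3 TPM between the nearest libraries.

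Of the antagonists, Il1rn, the gene of IL-1Ra, followed Il1b and Il1a. It was at 11.7, 32.4 and 24.5 CPM in Ctr, against 21.4, 399 and 292 CPM in αGlu. αGlu 1 lay inside the Ctr range, and the other two were 17.5-fold and 12.8-fold above the Ctr mean. For Il1rn the log2 fold change was 3.38 ± 1.04 with an adjusted p of 0.160 by edgeR, and 3.91 with 0.000706 without αGlu 1. The counts sum over the transcripts of a gene, so the secreted and the intracellular forms of IL-1Ra were not separated.

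Il18bp was the member whose αGlu libraries all lay above the Ctr libraries. Its levels were 42.3, 98.5 and 134 CPM in Ctr and 205, 190 and 147 CPM in αGlu, with αGlu 1 the highest of all. The means were 91.7 ± 46.4 and 181 ± 29.8 CPM (SD, n = 3). The log2 fold change of 0.98 ± 0.41 had an adjusted p of 0.208 by edgeR, and without αGlu 1 it was 0.88 with 0.151. It lay between 0.64 and 1.36 when any 1 library was left out. The 3 Ctr libraries themselves spread over a wider range than the gap between the groups, and Ctr 1 was the lowest for both Il18 and Il18bp. Il18bp overlaps Numa1, a gene on the other strand at 152 to 192 CPM, and the strand setting of the counting was not given in the sources used here.

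Among the receptor chains, Il1r1, the signalling receptor of IL-1α and IL-1β, was at 3.09, 3.01 and 2.78 CPM in Ctr, against 2.18, 39.1 and 44.0 CPM in αGlu. The Ctr libraries agreed closely (2.96 ± 0.158 CPM, SD, n = 3), αGlu 1 was below all of them, and αGlu 2 and αGlu 3 were 13.2-fold and 14.9-fold above their mean. The log2 fold change was 3.27 ± 0.99 with an adjusted p of 0.160 by edgeR, and 3.80 with 7.97e-06 without αGlu 1. Its partner Il1rap, the accessory chain, was at 10.1, 11.1 and 11.8 CPM in Ctr, against 11, 44.0 and 51.5 CPM in αGlu. Here too αGlu 1 lay inside the Ctr range and the groups overlapped. For Il1rap the log2 fold change was 1.69 ± 0.54 with an adjusted p of 0.163 by edgeR, and 2.11 with 5e-05 without αGlu 1. Per length, Il1rap was 1.78 to 2.27 times Il1r1 in Ctr and 2.66 times in αGlu 1, and 0.632 and 0.658 times Il1r1 in αGlu 2 and αGlu 3.

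Il1r2, the decoy receptor, was barely detected. It had 1 read in each Ctr library and 0, 14 and 13 reads in αGlu 1, 2 and 3. A count of 0 allows up to 0.172 CPM in αGlu 1 (3 reads), which is above the 0.0418 to 0.0464 CPM of the Ctr libraries, so no difference from Ctr was detectable there. Summed over the libraries, 3 reads stood against 27, which is 7.94 times the CPM (95% interval 2.44 to 40.9, exact, for counting error alone). Il1r2 passed the filter of the edgeR fit only when a Ctr library or αGlu 1 was left out, and then through the reads of αGlu 2 and αGlu 3. Without αGlu 1 the log2 fold change was 3.22 ± 0.52 with an adjusted p of 0.00422 by edgeR, which is therefore given as a description. Without 1 of the Ctr libraries its adjusted p was 0.347 to 0.398 by edgeR, with no low-count filter it was 0.247, and by DESeq2 on all 6 libraries 0.222.

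Il1rl2, the receptor chain specific for IL-36, was at 15.9, 16.6 and 13.6 CPM in Ctr, against 15.7, 31.6 and 24.6 CPM in αGlu. Its difference was the smallest of the receptor chains tested, and αGlu 1 again lay within the Ctr range. The log2 fold change was 0.65 ± 0.26 with an adjusted p of 0.195 by edgeR. Without αGlu 1 it was 0.87 with an adjusted p of 0.00379, which was not called because it stayed under the fold limit.

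Il1rl1, which codes for ST2, was the member that stood lower. It had 166, 76 and 55 reads in Ctr and 10, 9 and 6 in αGlu, or 7.54, 3.18 and 2.55 CPM against 0.574, 0.283 and 0.220 CPM. All 3 αGlu libraries, αGlu 1 included, were below all 3 Ctr libraries, at 7.71-fold, 15.6-fold and 20.1-fold below the Ctr mean. The log2 fold change was -3.67 ± 0.60, and it lay between -4.10 and -3.02 when any 1 library was left out. Its adjusted p of 0.149 by edgeR equalled the smallest among all genes tested, a tie shared with other genes. Some of these had a smaller unadjusted p by edgeR, such as Ccl22 with 0.000195 against 0.000862 for Il1rl1. Without αGlu 1 the log2 fold change of Il1rl1 was -4.10 with an adjusted p of 0.00399 by edgeR, and by DESeq2 on all 6 libraries the adjusted p was 2.35e-06. ST2 exists as a membrane receptor and as a soluble decoy from the same gene, and the counts do not separate them.

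**Figure D2:**
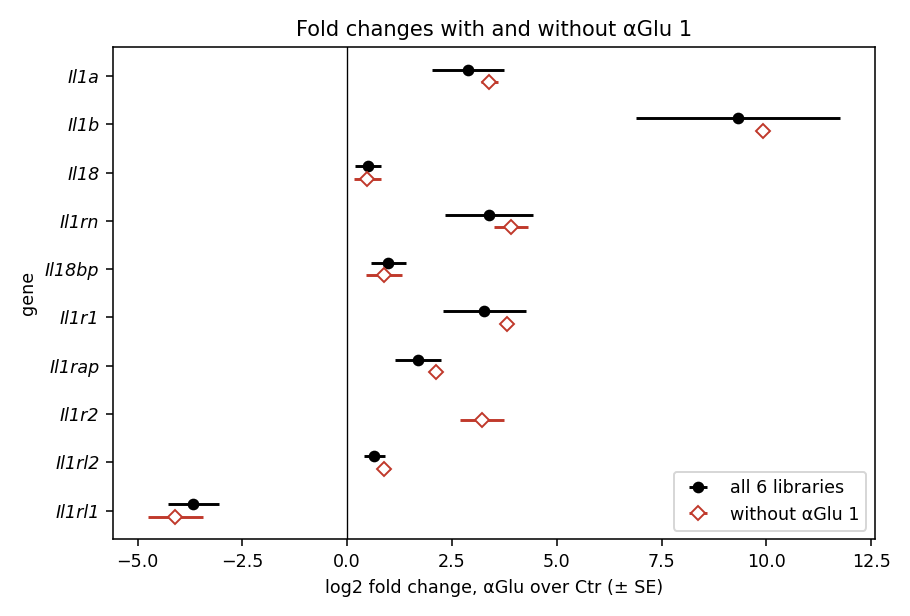
Log2 fold change of αGlu over Ctr with its standard error for each member, by edgeR's quasi-likelihood fit on all 6 libraries (black circles) and without αGlu 1 (open red diamonds). Leaving αGlu 1 out narrowed the error bars of Il1a, Il1b, Il1rn, Il1r1, Il1rap and Il1rl2 and moved their values to the right, whereas Il18, Il18bp and Il1rl1 kept bars of similar length; Il1r2 passed the filter only in the second of these fits.

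ST2 is abundant on mast cells, so markers of other cells were read beside it. Mast cell and basophil markers summed to 3.85 to 5.06 CPM in Ctr and 5.13 to 6.65 CPM in αGlu, with Mcpt4, Tpsb2 and Cma1 at 0 reads in all 6 libraries and 2 of 10 markers above 1 CPM on average. These were Kit, at 3.09, 2.01 and 1.62 CPM in Ctr and 1.15, 0.756 and 0.403 CPM in αGlu, and Hdc, which stood the other way at 0.182, 0.334 and 0.232 CPM in Ctr and 0.688, 3.31 and 4.25 CPM in αGlu. Without Hdc, left out after its values were seen, the other 9 markers summed to 4.82, 4.72 and 3.62 CPM in Ctr and 5.96, 1.83 and 1.28 CPM in αGlu. This sum was thus highest in αGlu 1 and lowest in αGlu 2 and αGlu 3, while Il1rl1 was low in all 3, and the part of these cells in the result was not tested. Neutrophils are another source of Il1r2 and Il1b. Their markers summed to 129 to 211 CPM in Ctr and 241 to 636 CPM in αGlu, and 86.9% of this came from Csf3r, which Mφs also express. The rest summed to 26.6 to 69.9 CPM in Ctr and 28.2 to 57.3 CPM in αGlu. Most of this rest was Mmp8, at 21.7, 63.0 and 42.5 CPM in Ctr and 54.0, 31.6 and 26.7 CPM in αGlu. The part of neutrophils in the result was not tested. Ly6g and Retnlg had 0 reads in all libraries, and 4 of 12 markers exceeded 1 CPM. A count of 0 allows up to 0.0944 to 0.172 CPM per library. Fibroblast markers, 0 of 8 above 1 CPM, summed to 2.09 to 8.09 CPM in Ctr, highest in Ctr 1, the library with most Il1rl1, and to 2.14 to 3.27 CPM in αGlu, and their part was not tested. Dendritic cell markers, 1 of 8 above 1 CPM, summed to 20.4 to 24.8 CPM in Ctr and 6.64 to 16.1 CPM in αGlu, 89.0% of it Batf3, with Xcr1 at 0 reads. Lymphoid markers, 1 of 9 above 1 CPM, summed to 599 to 833 CPM in Ctr and 257 to 682 CPM in αGlu, 99.9% of it Il7r, with Cd3g and Nkg7 at 0 reads.

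Without a model, 2 of the 10 members had no overlap between groups, Il18bp higher and Il1rl1 lower in αGlu. Over all genes tested the share was 30.2%, of which 14.2% were higher and 15.9% lower, so the members' count was below this background. Without αGlu 1, 9 of the 10 members had no overlap, Il1r2 with its few reads included, against 65.8% of all genes. Counted library by library, αGlu 1 was above every Ctr library for 2 members, within the Ctr range for 4 and below it for 4, among them Il1r2, where 0 reads against 1 is no detectable difference. In contrast, αGlu 2 was above every Ctr library for 9 members and below for 1, and αGlu 3 was above for 8, within for 1 and below for 1.

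The calls depended on the method and on αGlu 1. DESeq2 on all 6 libraries called 6 members, namely Il1a, Il1b, Il1rn, Il1r1 and Il1rap as higher and Il1rl1 as lower, against 8.16% of all genes it tested, 4.23% higher and 3.93% lower. The edgeR likelihood-ratio test called the same 6, against 7.53% of all genes, 3.87% higher and 3.66% lower. With the replicate number as a further term, the quasi-likelihood test called Il1rl1 only, against 0.142% of all genes, 0.0754% higher and 0.067% lower. Limma-voom called 0 members and 0% of all genes, with 1 member at an unadjusted p under 0.05. In the edgeR quasi-likelihood fit without αGlu 1, these 6 were called again, against 18.6% of all genes, 8.05% higher and 10.5% lower. Il1r2 also passed both limits there, but entered that fit only through the libraries in which it was high. Il1b, with few reads elsewhere, was also kept in it largely through those libraries. The median log2 fold change of the 9 tested members was 1.69 on all libraries, with 8 above 0 and 1 below, and the median over all genes tested was 0.02.

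An antagonist can be set against its partner within a library, where sequencing depth cancels. Il1rn was 7.94, 31.5 and 24.9 times Il1b in Ctr and 62.7 times in αGlu 1, but 0.428 and 0.292 times in αGlu 2 and αGlu 3 (TPM plus 0.1). In log2 units the Ctr mean was 4.2 ± 1.06 and the αGlu mean 0.99 ± 4.32 (SD, n = 3), a difference of -3.21 that was smaller than the spread among the αGlu libraries (exact permutation test, two-sided, p = 0.4, adjusted over the 3 ratios tested 0.4). Without αGlu 1 the difference was -5.70. So IL-1Ra transcripts outnumbered those of IL-1β per length in 4 libraries, and the reverse held in αGlu 2 and αGlu 3, although Il1rn itself was at its highest there. Against Il1a, the ratio of Il1rn was 0.796 to 1.69 in Ctr and 1.24 to 1.89 in αGlu, with overlapping groups.

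Il18bp exceeded Il18 in every library, by 6.15, 9.95 and 8.68 times in Ctr and by 13.1, 12.1 and 10.4 times in αGlu. The groups did not overlap, and the log2 ratio differed by 0.54 (exact permutation p = 0.1, the smallest that 3 against 3 allows, and 0.15 after adjustment over the 3 ratios). The ratio of the decoy Il1r2 to Il1r1 was 0.109 to 0.123 in Ctr and 0.0860, 0.0424 and 0.0404 in αGlu, a log2 difference of -1.10 (exact permutation p = 0.1, adjusted 0.15). In the 4 libraries with at most 1 read of Il1r2 this ratio was set largely by the added 0.1 TPM, and the exact permutation p was 0.4 with 1 TPM added and 0.3 with RPKM in place of TPM, so that the groups were apart only under some settings.

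**Figure D3:**
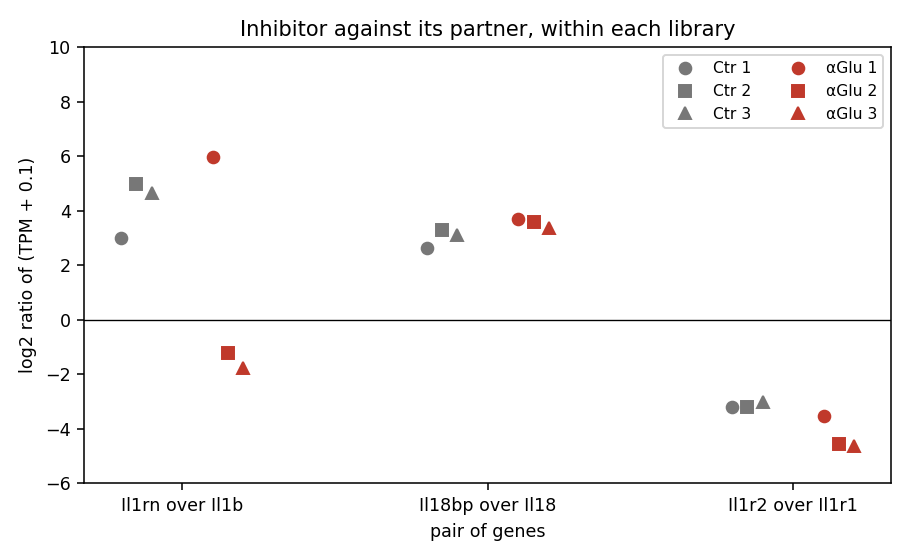
Log2 ratio of each inhibitor to its partner (TPM plus 0.1) in each of the 6 libraries, grey for Ctr and red for αGlu. Il1rn over Il1b lies above 0 in the Ctr libraries and αGlu 1 and below 0 in αGlu 2 and αGlu 3, while Il18bp over Il18 spans only 2.62 to 3.71.

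Of the receptor genes, 4 members sit in 1 cluster on chromosome 1 (GRCm38), together with the receptor chains of IL-18. From left to right, all on the plus strand, these are Il1r2 (chr1:40074079-40125231), Il1r1 (chr1:40225080-40317257), Il1rl2 (chr1:40324610-40367562), Il1rl1 (chr1:40429570-40465415), Il18r1 (chr1:40465552-40500854) and Il18rap (chr1:40515362-40551705), a span of 477.6 kb. Neighbours in the cluster differed in direction. The 3 genes on the left were higher in αGlu 2 and αGlu 3 than in every Ctr library, whereas Il1rl1 was lower in all 3 αGlu libraries. Il18rap, the accessory chain for IL-18, was at 2.45, 1.13 and 1.48 CPM in Ctr and 1.20, 0.598 and 0.550 CPM in αGlu, and these overlapped. Its log2 fold change was -1.13 ± 0.45 with an adjusted p of 0.198 by edgeR, and -1.55 with 0.0308 without αGlu 1. Il18r1 had 7 reads in each group. The other members lie on chromosome 2 (Il1rn, chr2:24336853-24351494, plus strand; Il1a, chr2:129299610-129309972, and Il1b, chr2:129364570-129371139, both minus), chromosome 7 (Il18bp, chr7:102014885-102018690, minus), chromosome 9 (Il18, chr9:50554827-50581840, plus) and chromosome 16 (Il1rap, chr16:26581704-26730117, plus). Il1bos, which overlaps Il1b on the other strand, had 0 reads in Ctr and αGlu 1 and 2 and 5 reads in αGlu 2 and αGlu 3.

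**Figure D4:**
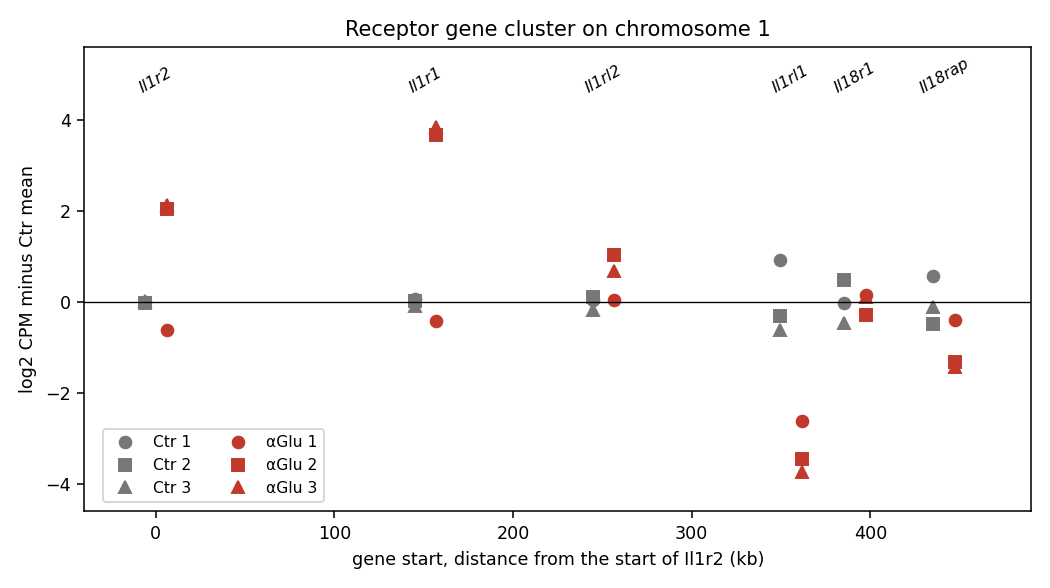
Log2 CPM minus the Ctr mean for the 6 receptor genes of the cluster, placed by the distance of each gene start from that of Il1r2 in kb, with grey Ctr and red αGlu symbols offset sideways for legibility. Il1r2, Il1r1 and Il1rl2 lie above 0 in αGlu 2 and αGlu 3, and all 3 αGlu libraries of Il1rl1 lie between -3.73 and -2.62.

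Further ligands and receptors of the family were mostly undetected. Il33, the ligand of ST2, had 1 read in each group. Il1f9 (IL-36γ), a ligand of the receptor that Il1rl2 encodes, had 12 reads in Ctr and 40 in αGlu, or 2.94 times the CPM (exact 95% interval 1.51 to 6.16, counting error alone), of which αGlu 1 had 0. Il1f6 (IL-36α) had 2 reads in Ctr and 0 in αGlu, and Il1f8, Il1f10, Il1rapl1 and Il1rapl2 had 0 reads in all libraries. Sigirr, an inhibitory receptor of the family, was low (0.273 to 0.510 in Ctr and 0.344 to 0.66 in αGlu, in CPM), with a log2 fold change of 0.54 ± 0.41 that had an adjusted p of 0.412 by edgeR.

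The genes around the family were read from lists of its signalling chain, of the processing and release of its ligands, of genes that IL-1 induces and of genes that IL-4 and IL-13 induce. The quasi-likelihood test on all libraries called 0 genes of any list, so the counts below are at an unadjusted p under 0.05, where 12.7% of all genes tested were higher and 11.9% lower in αGlu. The signalling list (adaptors, kinases and NF-κB inhibitors) had a median of 0.21 over its 26 genes on the log2 scale, with 10 higher and 2 lower. Nfkbia, which codes for IκBα, was at 30.7, 27.2 and 37.1 CPM in Ctr and 31.9, 174 and 176 CPM in αGlu. Nfkbiz, which codes for the nuclear cofactor IκBζ, had 3.43 to 3.5 CPM in Ctr and 4.59, 21.8 and 25.3 CPM in αGlu, with no overlap. Irak3, an inhibitory member of the receptor-associated kinases, had 17.2 to 18.5 CPM in Ctr and 18.2, 81.1 and 91.7 CPM in αGlu. Their adjusted p values by edgeR were 0.156 to 0.161. Lower with no overlap were Tollip, an adaptor that restrains the kinases (log2 fold change -0.29 ± 0.10), and Otulin, a deubiquitinase (-0.40 ± 0.15), and the next in this direction was Irak1 (-0.17 ± 0.10).

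The processing and release list had a median of 0.17 over 19 tested genes, with 5 higher and 2 lower. Nlrp3, the sensor of the inflammasome that activates caspase-1, was at 11.9, 7.98 and 14.2 CPM in Ctr and 15, 73.3 and 88.3 CPM in αGlu, with no overlap. Casp4, the caspase of the noncanonical inflammasome, was at 21.8, 36.9 and 41.5 CPM against 49.7, 103 and 91.4 CPM, also with no overlap, and Gsdme, a pore-forming gasdermin, had a log2 fold change of 0.89 ± 0.24. In the other direction stood Capn2, a calpain (calpains can cleave the IL-1α precursor), with 176, 174 and 181 CPM in Ctr and 140, 81.3 and 85.4 CPM in αGlu, and Pycard, the adaptor ASC, with 72.3 to 75.4 CPM in Ctr and 68.9, 49.5 and 54.0 CPM in αGlu. Capn1 followed with -0.20 ± 0.12. The adjusted p values of these 6 genes were 0.157 to 0.313 by edgeR.

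Of 18 genes that IL-1 induces, 10 passed the filter, and their median log2 fold change was 3.36, with 9 higher and 0 lower at an unadjusted p under 0.05. A low-value filter keeps genes that are high in 1 group only, so these 10 do not stand for all 18. Saa3, an acute-phase serum amyloid, was at 4.68, 4.6 and 5.75 CPM in Ctr, against 10.3, 13500 and 12400 CPM in αGlu. Ptgs2, the inducible cyclooxygenase, was at 2.63 to 2.86 CPM in Ctr and 4.01, 73.3 and 55.9 CPM in αGlu. Both lacked overlap, with αGlu 1 just above Ctr. Nos2, the inducible nitric oxide synthase, was at 5.68 to 11 CPM in Ctr and 10.7, 531 and 245 CPM in αGlu, and here αGlu 1 lay inside the Ctr range. The adjusted p of all 3 was 0.156 by edgeR. Many of these genes also respond to other inflammatory stimuli.

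The IL-4 and IL-13 list, which tracks the cytokines used for polarization, had a median of 0.32 over 18 tested genes, with 5 higher and 4 lower. Counted by groups that do not overlap, the balance was the opposite, with 2 higher and 7 lower, against 14.2% and 15.9% of all genes tested. Ccl22, a chemokine of M2 Mφs, was at 13, 9.57 and 11 CPM in Ctr and 2.47, 1.61 and 0.990 CPM in αGlu. Mgl2, a lectin of M2 Mφs, was at 87.9, 66.3 and 83.9 CPM against 10.6, 0.504 and 2.35 CPM, and Irf4, a transcription factor of M2 polarization, at 30.3, 26.9 and 25.3 CPM against 8.95, 2.05 and 1.54 CPM. These 3 genes were, like Il1rl1, low in αGlu 1 as well. Higher were Il4ra, the receptor chain shared by IL-4 and IL-13 (62.7, 61.1 and 66.3 CPM against 78.2, 510 and 643 CPM), Socs1, a cytokine signalling inhibitor (log2 fold change 1.83 ± 0.45), and Arg1, the arginase of M2 Mφs, which was at 24.3 to 45.2 CPM in Ctr and 23.5, 1890 and 1790 CPM in αGlu. Adjusted p values were 0.149 to 0.159 by edgeR. Without αGlu 1, 8 genes of this list were called higher and 7 lower, 10 of the genes that IL-1 induces were called higher and 0 lower, and the signalling and processing lists had 4 higher and 0 lower, and 4 higher and 1 lower. The lists held 18, 10, 26 and 19 genes tested on all libraries, in the order just given, and the counts cover only these. They stand beside 8.05% higher and 10.5% lower of all genes tested in that fit. All of these values depend on leaving out αGlu 1 after the data were seen.

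**Figure D5:**
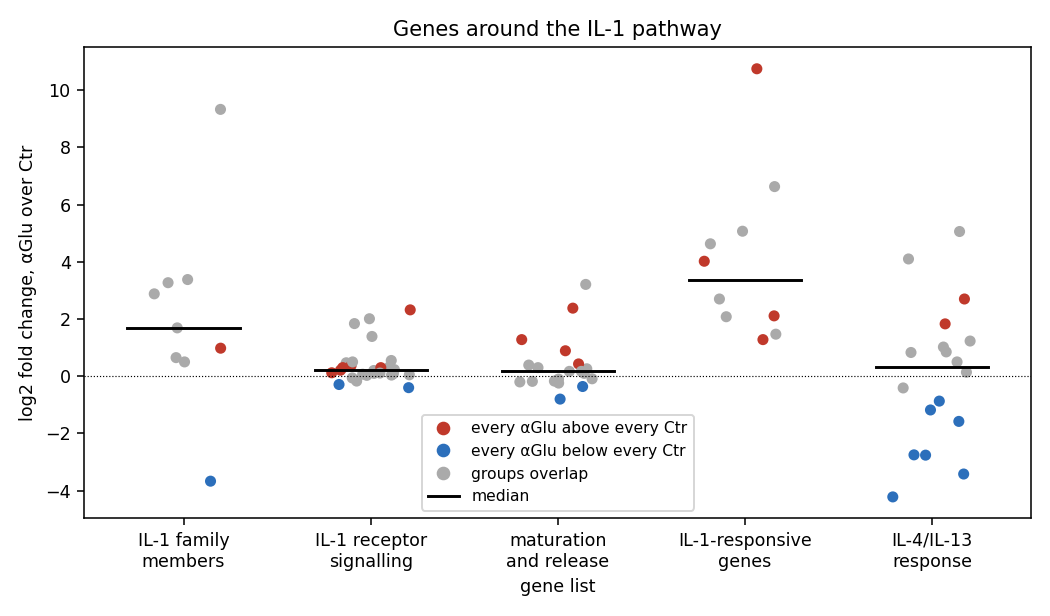
Log2 fold change of αGlu over Ctr, by edgeR on all 6 libraries, for each tested gene of the IL-1 family and of 4 related lists, with a black bar at the median of the list. Red and blue points are genes whose αGlu libraries all lie above or all below every Ctr library, and grey points are genes whose groups overlap; the medians are 1.69, 0.21, 0.17, 3.36 and 0.32 from left to right.

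Across the 6 libraries, log2 CPM of Il1a, Il1b, Il1rn, Il1r1, Il1rap and Il1rl2 correlated with one another at r of at least 0.92. Il18 correlated with Il18bp at 0.96, and both correlated with those 6 genes at 0.33 to 0.56. Il1rl1 was opposite to all of the others, at -0.84 to -0.72. The 6 points share their libraries, and αGlu 2 and αGlu 3 stand apart from the rest, and high values of r were common. At r above 0.95 there were 712 other genes for Il1b, 823 for Il1a, 682 for Il1rn and 303 for Il1rl1, but 43 for Il18 and 92 for Il18bp. Nearest to Il1b were Npat, Il20rb and Ets2 (r of 0.998 to 0.999), and Il20rb and Ets2 were also the nearest to Il1r1, followed by Gpalpp1. Nearest to Il1a were Mocs1, Smim3 and Trim8, to Il1rn Gpank1, Eif2b2 and Cep85l, to Il1rap Emg1, Spidr and Opn3, and to Il1rl2 Gem, Fbf1 and Rsph9. Nearest to Il18 were Cept1, Bbs4 and Fbxo7 and to Il18bp Zup1, Foxred1 and Plaat3. Psat1 (r of 0.998), H2az1 (0.997) and Cyp51 (0.994) were the nearest to Il1rl1.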

How the data were processed

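Total RNA was purified and libraries were made with a stranded mRNA kit, per the labels. Per the study's methods, read annotation and normalization were done by the authors in the RNA-seq Analysis Portal of QIAGEN. The submitters' processing notes name GRCm38, and the aligner, the gene annotation and the strand setting are not given in the sources used here. The deposited counts are whole reads over the exons of each gene, without normalization. The authors also deposited RPKM values and TPM values, which are scaled by gene length, and a signal headed CPM, which was not used for tests. Every column of values could be tied to 1 library.

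All tests used the deposited counts. After filterByExpr (minimum count 10, minimum total count 15), library sizes were scaled by TMM, and edgeR 4.0.16 in R 4.3.3 fitted a quasi-likelihood model of group alone to all genes and all 6 libraries (two-sided, Benjamini-Hochberg adjustment). In the text, CPM means counts divided by the library size after TMM scaling. Fold changes are αGlu over Ctr, and standard errors derive from the fold change and its statistic. Ratios within a library used TPM plus 0.1 and exact permutation tests. Named genes were all members, the tested genes of the wider family, the 3 genes with the smallest unadjusted p in each direction of each list and the 3 genes nearest to each member by Pearson r. Members and lists were chosen with earlier results of these data known. Coordinates are from GENCODE M21 (GRCm38) and promoters from RefSeq (GRCm38.p6).

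Alternatives were DESeq2 1.42.0, limma-voom (limma 3.58.1), the edgeR likelihood-ratio test, robust estimation, other scalings, filters and thresholds, the replicate number as a block, other pseudocounts and each library left out. The models were tested on simulated data in which the libraries of a group were alike, unlike the αGlu libraries here. Every pair of libraries differed beyond sampling noise (chi-square per gene of at least 19.8). Intervals and floors cover counting error only, and p-values set a group difference against the spread between these libraries.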

Additional observations from a re-analysis of the deposited data

How the results depend on the processing

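With the quasi-likelihood test on all 6 libraries 0 genes and 0 members were called. DESeq2 called 1119 genes and 6 members, and the edgeR likelihood-ratio test 899 genes and 6 members. Leaving out 1 library gave 0 to 2290 genes, 0 to 7 members and 2 to 9 members with no overlap between groups, and each upper value came from leaving out αGlu 1, with Il1r2 among these 7 and 9. Other scalings, other filters on low counts, robust estimation, limma-voom and the threshold without a fold limit all gave 0 genes and 0 members. Under the filter of CPM above 1 in 3 libraries, 8 members were tested and Il1b was not among them. None of the 9 tested members changed direction under any setting in which it was tested. The difference in Il1rn over Il1b ranged from -5.70 to -1.83 when 1 library was left out. Same-numbered libraries deviated together weakly, at r of 0.076, 0.065 and 0.154, each above the -0.112 to 0.046 of other pairs. These values cannot decide whether the numbers pair the libraries, and the labels do not say. The main fit took no pairing, and the replicate block is given as an alternative. With the replicate block the quasi-likelihood test called 17 genes, or 0.142%, and 1 member, Il1rl1, with a log2 fold change of -3.56 and an adjusted p of 0.08 by edgeR. For Il1r2 over Il1r1 the exact permutation p was 0.1 as reported, 0.4 with 1 TPM added and 0.3 with RPKM. For the paired ratios the replicate block gave exact sign-flip p values of 0.5, 0.25 and 0.25, where 0.25 is the smallest that 3 pairs allow. The cause of these differences was not tested. Depth limits Il1r2, with at most 1 read in 4 libraries, Il1b in Ctr and αGlu 1 and Il1rl1 in αGlu, with at most 10 reads each. The Ctr and αGlu libraries carry no batch or date in the labels, so no value within batches could be given.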
